A study of Rattus norvegicus with 2 samples.

Results

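Keratins are the intermediate filament proteins of epithelial cells, and 7 keratin genes of rat mammary tumour cells are described here. They are the simple epithelial keratin genes Krt7, Krt8, Krt18, Krt19 and Krt23 and the hair keratin genes Krt81 and Krt82. The set was chosen by keratin family and by differences already seen between these 2 arrays, so the differences of its members are descriptions and were not tested. Each of the 7 genes matched 1 of the 30367 gene probes of the array through its transcript accession. Of the 7, 6 were measured, which here means well above background in every spot on both arrays, and 9026 named genes in all were measured.

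RNA came from RMT-1 cells (clone E4), a rat mammary tumour cell line grown in culture. One sample came from cells transfected with an siRNA against Pla2g4c, which encodes a cytosolic phospholipase A2, and the other from cells given a negative control siRNA. No further agent is named for either group, and the siRNA dose and the time after transfection are not given in the sources used here. Each group was 1 array labelled with Cy3, so there was no replicate check and no p-value, and every spread between spots is technical. In RNA of a whole culture, fewer cells that express a gene and less of its RNA per cell cannot be told apart. The targeted gene could not be checked, since no probe was matched to Pla2g4c.

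A keratin filament is built from pairs of a type I (acidic) and a type II (basic) keratin, and neither type forms filaments alone. In simple epithelia and in luminal cells of the mammary gland the type II keratin Krt8 pairs with the type I keratins Krt18 and Krt19, and Krt7 is a further type II keratin of ductal epithelia. Krt23 is a type I keratin, and Krt81 and Krt82 are type II keratins of hair. In the rat the type II genes lie together on chromosome 7, with Krt18 beside Krt8 at the end of that cluster, and the other type I genes lie together on chromosome 10.

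Krt81, Krt82 and Krt23 were 3.34-fold, 3.06-fold and 2.88-fold higher with the Pla2g4c siRNA. Krt8 was 1.81-fold higher at a dim signal, Krt7 and Krt19 were 1.24-fold and 1.23-fold lower but slightly higher when scaled to spike-in RNAs, and Krt18 was not well above background on either array. Differences are Pla2g4c siRNA minus negative control siRNA on the log2 scale, taken after each array's processed signal (fluorescence from which the scanner software had removed background) was divided by its 75th percentile. The ± of a difference is the software's error of both signals, which covers error within the arrays only and had a median of 0.20 over all measured genes. Of the 6 measured members 3 were at least 2-fold higher, against 2.91% of all measured genes, and 0 were at least 2-fold lower, against 3.05%. The median difference was 1.19 over these 6 genes and -0.01 over all measured genes. Both depended on background removal. Normexp, another background correction explained below with Krt82, left 1 member at least 2-fold higher with an offset of 50, against 116 of 9026 genes. With an offset of 0 it left 2, against 204 genes. The median of the members was then 0.24 and 0.77. The choice of the set used the same differences, so nothing is read from these shares.

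**Figure D1:**
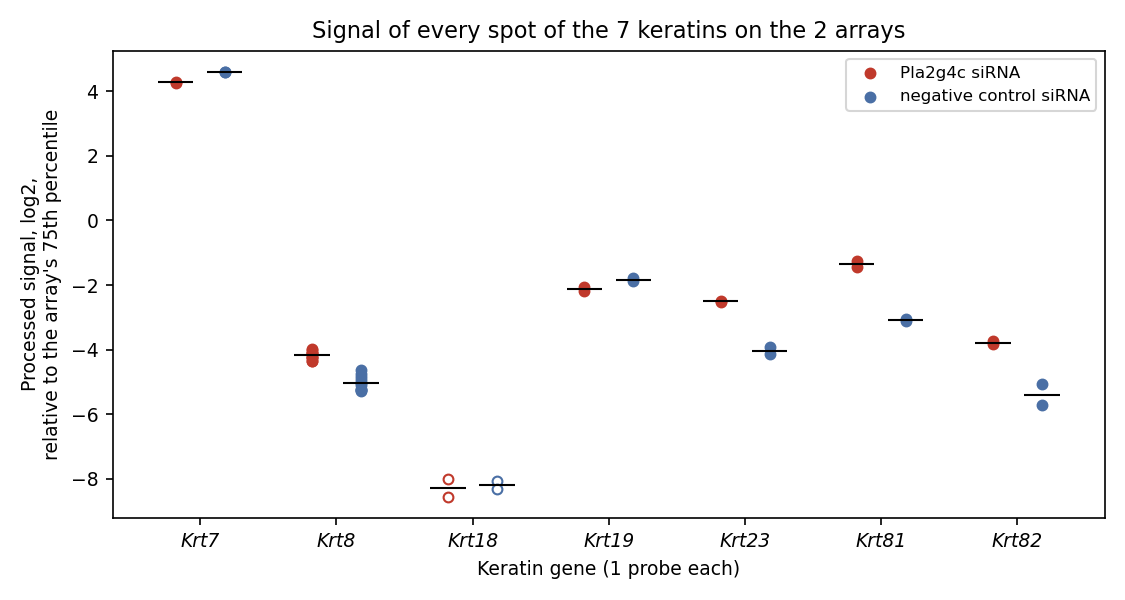
Processed signal of every spot of the 7 keratin probes, on a log2 scale relative to the array's 75th percentile, for the Pla2g4c siRNA array (red, left) and the negative control siRNA array (blue, right); filled points are well above background, open points are not, and bars are means. The spots of Krt8, Krt23, Krt81 and Krt82 lie higher with the Pla2g4c siRNA without overlap, those of Krt7 and Krt19 slightly lower (above 0 only under spike-in scaling, not drawn), and Krt18 is not well above background on either.

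Krt81, a type II keratin of the hair cortex, had the highest difference of the set. Its 2 spots gave processed signals of 409 and 459 with the Pla2g4c siRNA, against 97.7 and 102 with the control siRNA. Both spots were higher with the Pla2g4c siRNA, and the arrays did not overlap. The difference was 1.74 ± 0.21, and 0.753% of measured genes had a higher one. Krt81 stood clear of background on both arrays, with a raw spot signal 19.6 times the local background with the Pla2g4c siRNA and 4.99 times with the control siRNA.

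Krt82, a type II keratin of the hair cuticle, gave 82.8 and 78.4 with the Pla2g4c siRNA, against 16.2 and 25.4 with the control siRNA. The arrays did not overlap, and the difference was 1.61 ± 0.30. The signal was dim, at 4.57 times the local background with the Pla2g4c siRNA and 2.09 times with the control siRNA. Its spots had an SD of 0.055 with the Pla2g4c siRNA and 0.46 with the control siRNA (log2 scale, n = 2 spots each), so most of the spread lay in the dimmer array. The size of this difference depended on the background correction: normexp correction, which models background and adds an offset to damp dim signals, gave 0.37 with an offset of 50 and 0.99 with an offset of 0.

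Krt23, a type I keratin of glandular and intestinal epithelia, gave 197 and 193 with the Pla2g4c siRNA, against 48.6 and 56.1 with the control siRNA. Again both spots were higher with the Pla2g4c siRNA and the arrays did not overlap. The difference was 1.52 ± 0.22, with signals 7.72 times the local background with the Pla2g4c siRNA and 2.73 times with the control siRNA. Normexp with an offset of 50 gave 0.83 and with an offset of 0 gave 1.36. Krt23, Krt82 and Krt8 were all among the 2257 measured genes of lowest mean signal, of which 5.18% reached 2-fold higher, against 2.91% of all measured genes.

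Upstream sequence was found by symbol for 4 of the 7 genes (Krt8, Krt18, Krt23 and Krt82) in the RefSeq promoters of rat build GRCr8. The 250 bases before the annotated start were searched on both strands for 5 patterns, which were the TATA box pattern TATAAA, the GC box pattern GGGCGG, the AP-1 pattern TGANTCA, the AP-2 pattern GCCNNNGGC and the pattern GGANTTTCC from NF-kB sites. Krt23 is shown as the member at least 2-fold higher whose window held a match, and its capitals mark the only one found, to GGANTTTCC on the opposite strand at -54 to -46 from the start. These letters occur in 1.08% of 33469 rat promoter windows of the same length, and a match describes the sequence only. The window of Krt82 is neither shown nor described, since it may hold part of the coding sequence and so may not lie wholly upstream.
Krt23 (chr10:84946930-84947179, minus strand): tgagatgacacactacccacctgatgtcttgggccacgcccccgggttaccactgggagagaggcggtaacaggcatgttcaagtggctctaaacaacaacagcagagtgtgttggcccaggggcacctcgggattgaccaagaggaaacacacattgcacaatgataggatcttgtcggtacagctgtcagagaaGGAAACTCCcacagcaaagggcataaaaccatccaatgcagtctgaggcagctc

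Krt8, the main type II keratin of simple epithelia, was represented by 10 spots of 1 probe. Processed signals ranged over 54.3, 61.2 and 70.5 (lowest, median, highest) with the Pla2g4c siRNA, against 21.9, 25.5 and 34.2 with the control siRNA. The arrays did not overlap over the 10 spots, and after scaling the lowest spot with the Pla2g4c siRNA lay 0.29 above the highest spot of the control array. The difference was 0.86 ± 0.27, below 2-fold. Scaled to the spike-in RNAs it was 1.41, above 2-fold, and in the authors' deposited values 0.99. The raw signal of Krt8 was 3.20 times the local background with the Pla2g4c siRNA and 2.02 times with the control siRNA. The difference was 0.11 under normexp with an offset of 50, which is smaller than the error, and 0.55 with an offset of 0.

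Krt18, the type I partner of Krt8, had processed signals of 4.30 and 2.96 with the Pla2g4c siRNA, against 3.16 and 2.71 with the control siRNA. None of these 4 spots was well above background, so neither a difference nor a bound is given. Its raw signal was 1.26 times the local background with the Pla2g4c siRNA and 1.07 times with the control siRNA. Both spots with the Pla2g4c siRNA, and 0 with the control siRNA, passed the software's weaker test of a positive and significant signal. With 1 probe for the gene, the absence of Krt18 transcript was not shown.

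Krt8 and Krt18 are neighbours on chromosome 7, and their upstream windows are shown for that reason. In Krt8 capitals mark 2 overlapping matches to TATAAA, 1 on each strand, between -106 and -99. In Krt18 capitals mark a match to GCCNNNGGC at -104 to -96 and one to GGGCGG at -84 to -79. Of all windows 12.9% held TATAAA, 12.6% GCCNNNGGC and 30.5% GGGCGG, and 6.34% held TGANTCA, which was found in none of the 3 windows shown.
Krt8 (chr7:135010340-135010589, minus strand): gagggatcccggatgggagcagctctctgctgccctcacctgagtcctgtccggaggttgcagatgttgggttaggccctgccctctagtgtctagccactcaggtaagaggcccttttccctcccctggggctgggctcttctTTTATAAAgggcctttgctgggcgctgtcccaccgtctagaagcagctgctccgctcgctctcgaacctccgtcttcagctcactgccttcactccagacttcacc
Krt18 (chr7:135035918-135036167, plus strand): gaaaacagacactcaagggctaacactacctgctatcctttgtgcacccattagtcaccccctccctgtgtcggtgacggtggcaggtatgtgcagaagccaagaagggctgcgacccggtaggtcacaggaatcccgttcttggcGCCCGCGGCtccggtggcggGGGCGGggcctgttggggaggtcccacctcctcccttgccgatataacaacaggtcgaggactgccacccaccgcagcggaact

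Krt7 and Krt19, the members that differed least, were also the ones whose direction depended on scaling. Krt7, a type II keratin of ductal epithelia, gave 21309 and 21652 with the Pla2g4c siRNA, against 20608 and 20558 with the control siRNA, at 811 and 690 times the local background. Krt19, a type I keratin of simple and ductal epithelia, gave 264 and 241 with the Pla2g4c siRNA, against 248 and 232 with the control siRNA, at 10.5 and 9.48 times the local background. Before scaling both were nearly level, with ratios of 1.04 for Krt7 and 1.05 for Krt19. The Pla2g4c siRNA array was the brighter one (75th percentile 1105, against 852 with the control siRNA), so scaling gave -0.31 ± 0.20 for Krt7 and -0.30 ± 0.21 for Krt19. Scaled to the spike-in RNAs, which were added at fixed amounts, they were 0.235 and 0.25, so that no direction is given for either gene.

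**Figure D2:**
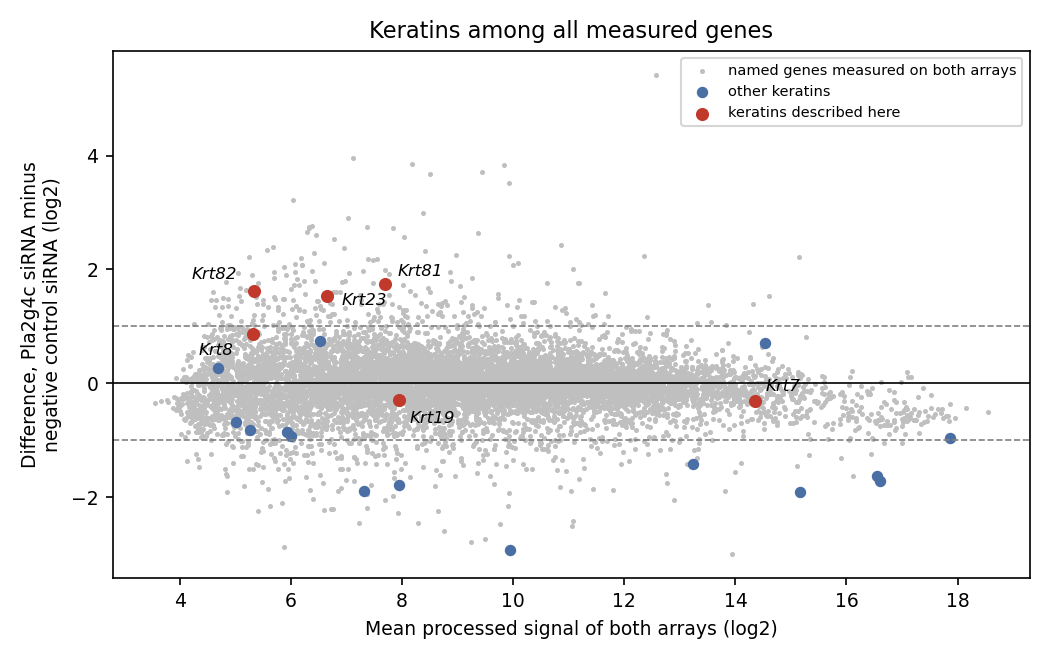
Difference between the arrays (Pla2g4c siRNA minus negative control siRNA, log2) against the mean processed signal of both arrays (log2) for 9026 measured genes (grey), with the 6 measured members in red and 15 other measured keratins in blue; dashed lines mark 2-fold. Krt81, Krt82 and Krt23 lie above the upper line, Krt8 below it, Krt7 and Krt19 near 0, and 7 other keratins below the lower line.

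Scaling shifted all genes together and therefore set how many lay on each side. By the 75th percentile 263 genes reached 2-fold higher and 275 reached 2-fold lower. The authors' deposited values gave 369 and 191, with a median over all genes of 0.12, and the spike-in RNAs gave 1186 and 68, with a median of 0.54. Spike-in scaling raised every gene by the same amount. Medians of the gene lists below are for 75th percentile scaling, and negative ones down to -0.43 turned positive under spike-in scaling. Krt81, Krt82, Krt23 and Krt8 remained higher with the Pla2g4c siRNA in each of the 12 alternatives that measured them. Krt81 was at least 2-fold higher in 12 of 12 alternatives, Krt23 in 11, Krt82 in 10 and Krt8 in 1. Some of these alternatives could not change the value. Each of these genes had 1 probe, which passed the dim filter and had no flagged spot. Keeping flagged spots, taking the brightest probe and dropping the dim filter therefore returned the value reported. Scaling to the median, to spots detected on both arrays or to the spike-in RNAs, and the deposited values, each moved these genes by a shared amount. The tally is therefore no count of independent checks.

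**Figure D3:**
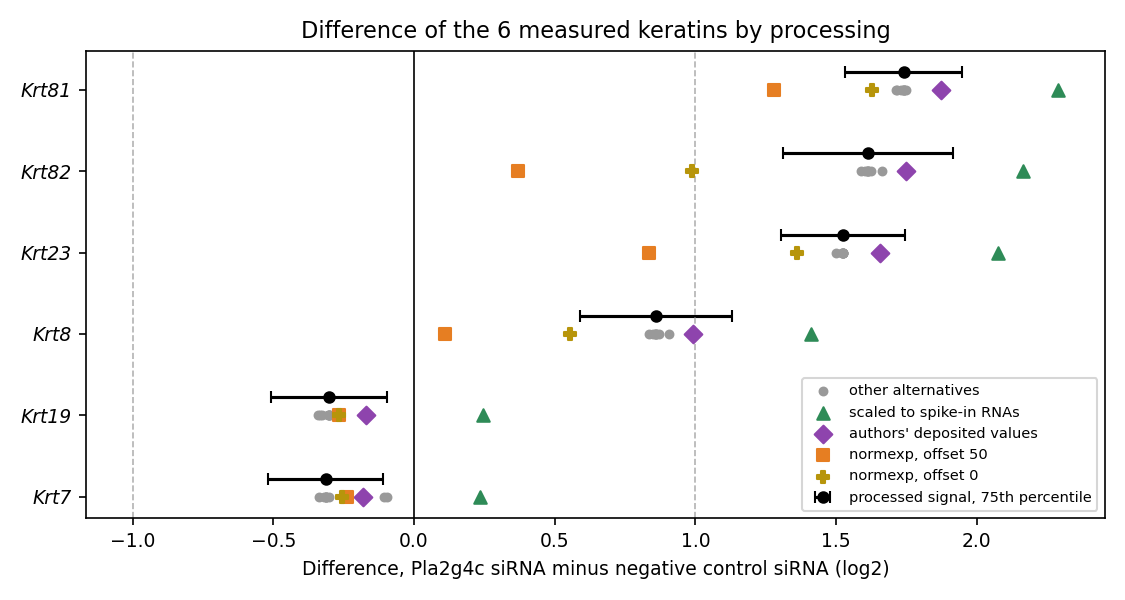
Difference of the 6 measured members (Pla2g4c siRNA minus negative control siRNA, log2) as reported, with the software's error (black), and under each processing alternative; dashed lines mark 2-fold. Krt81, Krt82, Krt23 and Krt8 stay above 0 throughout, normexp with an offset of 50 draws Krt8 to 0.11 and Krt82 to 0.37, and spike-in scaling puts Krt7 and Krt19 above 0.

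Most other measured keratins were lower with the Pla2g4c siRNA. Probes were found for 37 further keratin genes. Of the 15 measured, 0 reached 2-fold higher and 7 reached 2-fold lower, against 2.91% and 3.05% of all measured genes. Krt81, Krt82 and Krt23, each at least 2-fold higher, were members chosen partly by these differences and are not among the 15. The 0 therefore follows in part from that choice, and nothing is read from it. The median of the 15 was -0.97. Under spike-in scaling the counts of these 15 genes were 2 and 6 and their median was -0.42. Krt20, a simple epithelial keratin of the intestine, was well above background with the Pla2g4c siRNA only, with signals of 24.4 and, with the control siRNA, 5.75, and was at least 1.67-fold higher. The lowest were Krt13 (-2.93 ± 0.20), a keratin of stratified mucosa, and Krt6c (-1.91 ± 0.20), related to the keratins of activated epidermis. The highest were Krt87 (0.74 ± 0.22, and 0.28 under normexp with an offset of 50), listed with the hair keratins, and Krt15 (0.71 ± 0.20), a basal type I keratin. On the list of keratins of stratified epithelia and follicle sheaths, which did not hold Krt6c, Krt1 (-1.78 ± 0.21) was next lowest after Krt13. Krt76 (0.27 ± 0.33, and -0.19 under normexp with an offset of 50) was next highest after Krt15. On the same list Krt77 was well above background with the control siRNA only and at least 1.68-fold lower. Krt80, a further epithelial keratin, differed by -0.86 ± 0.23. Krt5 and Krt14, the type II and type I pair of basal epithelial cells, differed by -1.72 ± 0.20 and -0.97 ± 0.20. Both were among the brightest genes, and quantile normalization, which evens out differences that depend on brightness, gave -1.19 for Krt5 and -0.47 for Krt14.

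**Figure D4:**
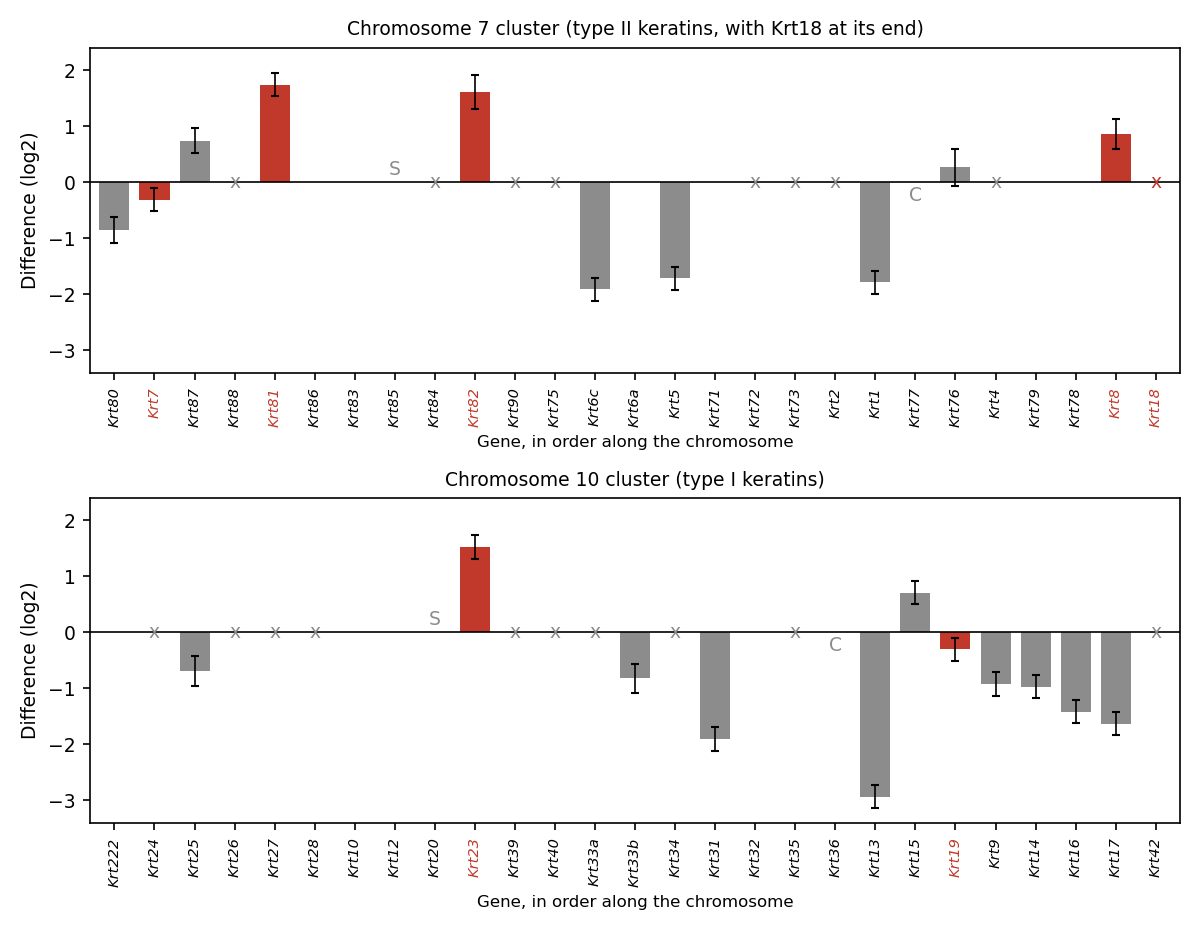
Difference of each keratin gene (Pla2g4c siRNA minus negative control siRNA, log2, bars with the software's error) in its order along chromosomes 7 and 10, members in red; S and C mark genes well above background on the Pla2g4c siRNA or the control array only, x genes not well above background on either, and blank places genes with no matched probe. Krt81 and Krt82 stand at 1.74 and 1.61 on chromosome 7, with Krt6c, Krt5 and Krt1 below -1, and Krt23 stands at 1.52 on chromosome 10.

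Beside Krt81 and Krt82, which were chosen for their differences, 3 hair keratins were measured on both arrays. The type II keratin Krt87 had signals of 135 with the Pla2g4c siRNA and 62.2 with the control siRNA, a difference of 0.74 ± 0.22. The type I keratin Krt31, of the hair cortex, had signals of 94.1 with the Pla2g4c siRNA and 271 with the control siRNA and differed by -1.90 ± 0.21. Krt33b, also type I, differed by -0.82 ± 0.26. Krt87 stayed above 0 and Krt31 and Krt33b below it in 12 of 12 alternatives that measured them. Of these, taking the brightest probe could not change the value, since each gene had 1 measured probe. The alternatives that only rescaled the arrays moved all genes by a shared amount. A further pair was well above background on 1 array only. These are given as bounds for 75th percentile scaling of the processed signal, which were not computed under normexp. Krt85, a type II keratin of the hair matrix and cortex, had signals of 38.1 with the Pla2g4c siRNA and 5.47 with the control siRNA and was at least 2.61-fold higher. Krt36, of type I, had signals of 16.6 with the Pla2g4c siRNA and 38.8 with the control siRNA and was at least 3.02-fold lower. Hair keratin genes are close in sequence and the probe sequences were not used here, so whether 1 transcript binds several of these probes was not tested.

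Proteins that bind or modify keratins were measured for 13 of 16 listed genes with a probe. Of these 0 reached 2-fold higher and 1 reached 2-fold lower, against 2.91% and 3.05% of all measured genes. The median of the 13 was -0.29, and positive under spike-in scaling. Plakoglobin, Jup, a desmosome protein that takes part in anchoring keratins, differed by -1.32 ± 0.20, and the desmosomal cadherin Dsc2 by -0.91 ± 0.20. At the upper end stood the autophagy receptor Sqstm1 (0.46 ± 0.20) and Dnajb6, a chaperone that binds Krt18 (0.35 ± 0.20). The transglutaminase Tgm2, which cross-links proteins, was well above background with the Pla2g4c siRNA only and was at least 12.1-fold higher.

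Transcription factors of simple epithelia had a median of -0.16 over 15 measured genes, positive under spike-in scaling. Of these genes 0 reached 2-fold higher and 1 reached 2-fold lower, against 2.91% and 3.05% of all measured genes. The AP-1 subunit Fosl1 (0.79 ± 0.20) and Tfcp2l1 (0.56 ± 0.21, 1 spot) were highest, and Klf4 (-1.36 ± 0.20) and Ehf (-0.82 ± 0.24) were lowest. Tfcp2l1 fell to 0.11 in its lowest alternative. Factors of the hair follicle had a median of -0.03 over 5 measured genes, from Foxn1 (-0.58 ± 0.25) and Dlx3 (-0.37 ± 0.21) to Msx2 (0.16 ± 0.23) and Gata3 (0.19 ± 0.22). Of these, Gata3 and Msx2 were -0.02 and -0.12 under normexp with an offset of 50, and Dlx3 was 0.18 under spike-in scaling. The follicle factor Lef1 was not well above background on either array.

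Markers of the cell types that the culture could hold were read beside the keratins. Luminal and epithelial surface markers had a median of -0.05 over 6 measured genes, with the adhesion protein Epcam at 1.03 ± 0.20 (1 spot) and Wfdc2 at 0.54 ± 0.21 highest and E-cadherin, Cdh1, at -0.63 ± 0.20 and Cd24 at -0.56 ± 0.21 lowest. The luminal hormone receptors Esr1, Pgr and Prlr did not stand well above background on either array. Basal markers had a median of -0.43 over 7 measured genes, positive under spike-in scaling. Krt5 and Krt17 (-1.63 ± 0.20) were lowest, and Acta2 (0.37 ± 0.22) and Myh11 (0.39 ± 0.27) highest. Under normexp with an offset of 50 Acta2 was 0.04 and Myh11 was -0.03. Of 9 fibroblast markers with a probe 3 were measured, Col1a1 (0.13 ± 0.20), Col1a2 (-0.26 ± 0.28) and Fbln1 (-0.50 ± 0.21). The receptor Pdgfra was well above background with the Pla2g4c siRNA only, with signals of 23.5 there and 10.3 with the control siRNA, and was at least 1.61-fold higher, while Pdgfrb, Dcn, Lum, Col3a1 and Thy1 were at background on both arrays. Of 8 immune markers 4 were measured, Lyz2 (0.60 ± 0.34), Csf1r (0.09 ± 0.41), Cd14 (-0.25 ± 0.20) and Cd68 (-0.39 ± 0.21), while Ptprc, Cd3e and Itgam were not well above background on either. Of 4 endothelial markers Cdh5 was measured (-0.40 ± 0.23), while Pecam1, Kdr and Tek were not well above background on either. Of these 8 measured markers, 7 changed sign under at least 1 alternative. The part of any of these in the keratin differences was not tested.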

How the data were processed

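RNA of 2 cultures was measured, 1 array each. The deposited scanner output gives each spot's linear intensity. The software was Feature Extraction from Agilent, named as 10.10 in the submitters' processing notes and as 10.10.1.1 per the headers, with background subtracted and signal detrended within the array and nothing normalized between arrays. Its flags for outlier spots and for background were taken over. The authors' deposited normalized intensities equal the processed signal times 1.499 (Pla2g4c siRNA) and 1.775 (control), as computed here, with the origin of these constants not stated in the labels or headers. Their medians were 130.2 and 118.5. Per the file headers both arrays were on 1 slide and in 1 scan. Well above background were 63.1% of gene spots with the Pla2g4c siRNA and 61.9% with the control siRNA, and 0 were saturated. The number of arrays limits the precision.

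Values are log2 of the processed signal minus log2 of the 75th percentile of that array's gene spots. Of 58717 gene spots, 722 with an outlier flag were dropped, and spots of a probe and measured probes of a gene were averaged. A gene well above background on 1 array only has a bound, in which the brighter value is set against the dim probe's own or, if higher, the lowest among detected probes. Bounds were computed for the processed signal by 75th percentile scaling only, so under normexp they may not hold. Genes were named by RefSeq transcript (18006 of 30367 probes). Members, lists and alternatives were chosen with earlier results of these data known. Named genes are the 7 members, the 2 highest and 2 lowest measured genes of each list (all where 4 or fewer were measured) and its largest bound in each direction, and further keratins and undetected markers named after their values were seen. The planned range of the genes nearest in signal was replaced by the share at 2-fold among the 2257 dimmest genes.

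Alternatives were normexp (offset 50, on the median spot signal), median, detected-spot and spike-in scaling (7 spike-in probes), quantile and cyclic loess normalization, the deposited values, flagged spots kept, the brightest probe, no filter on dim probes, probes above the median signal, thresholds of 1.5-fold and 3-fold and counts of probes. Normexp with offset 0, the background-subtracted signal before detrending, negative controls as background and the list of hair keratin-associated proteins were chosen after seeing the data. Only the percentile scaling was tested on simulated data, without the dimmest signals. Background removal, normexp, the filter on dim probes and the bounds were not tested in this way. Background models and between-array normalization ran in limma 3.58.1 (R 4.3.3), and all else in pandas 2.3.3 and numpy 2.4.6 (Python 3.11.15).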

Additional observations from a re-analysis of the deposited data

How the results depend on the processing

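With 1 array per group no setting carries a test, and the size of a dim member's difference depends on how background is removed. Normexp with an offset of 50 gave 0.11 for Krt8, 0.37 for Krt82, 0.83 for Krt23 and 1.28 for Krt81, and with an offset of 0 it gave 0.55 for Krt8 and 0.99 for Krt82. Spike-in scaling gave 1.41 for Krt8, 2.16 for Krt82, 2.07 for Krt23, 2.29 for Krt81, 0.235 for Krt7 and 0.25 for Krt19, the last pair opposite in sign to the values reported. For Krt7 quantile normalization gave -0.11 and cyclic loess -0.10. All other alternatives moved the members by less than the software's error. Krt7 was the only member among probes above the median signal. Genes at least 2-fold higher and lower numbered 116 and 154 under normexp with an offset of 50, 1186 and 68 under spike-in scaling, 539 and 765 without the filter on dim probes, 79 and 119 among probes above the median signal, 784 and 929 at 1.5-fold and 85 and 65 at 3-fold, and 558 probes were at least 2-fold lower. Why these counts moved was not tested beyond the changed threshold or gene set. The software's fitted background could not be recovered, so that measure of signal over background was not run, and against the negative control probes Krt8 stood at 3.10 times with the Pla2g4c siRNA and 1.87 times with the control siRNA. No paired analysis was possible because each group has 1 sample.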

Other observations

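Beyond keratins, intermediate filament genes of other classes were measured for 7 of 13 listed genes with a probe, with a median difference of 0.08. Of these 0 were at least 2-fold higher or lower, against 2.91% and 3.05% of all measured genes. Desmin, Des, a muscle filament protein, had a dim signal of 60.5 with the Pla2g4c siRNA and 25.9 with the control siRNA and differed by 0.85 ± 0.27, and by 0.14 under normexp with an offset of 50. Its partner synemin, Synm, differed by 0.63 ± 0.20, and by 0.14 in its lowest alternative. At the lower end stood vimentin, Vim, the filament of mesenchymal cells (-0.76 ± 0.21), and the nuclear lamin gene Lmna (-0.63 ± 0.20). Both were below 0 in all alternatives run that measured them.

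Hair keratin-associated proteins, which embed the keratin filaments of the hair shaft, had a probe for 15 genes, a list added after the data were seen. Of 8 measured, 0 reached 2-fold higher and 1 reached 2-fold lower, against 2.91% and 3.05% of all measured genes. The median of the 8 was -0.34, and positive under spike-in scaling. The lowest was Krtap16-5 (-1.23 ± 0.22 over 2 probes, and -2.04 with its brighter probe), followed by Krtap10l2 (-0.72 ± 0.21). Krtap10-9 (0.30 ± 0.21, and -0.02 without the filter on dim probes) and Krtap1-5 (0.10 ± 0.20) were highest. Krtap10l1 was well above background with the Pla2g4c siRNA only and at least 1.14-fold higher.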
